A study of Macaca mulatta with 4 samples.

Results

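The effector lymphocyte transcription factors followed here are 7 nuclear regulators: TBX21, EOMES, ZEB2, HOPX, RUNX3, PRDM1 and ID2. They were picked out of the tables by gene symbol, with no measured value in the rule, and all 7 were found among the 15354 gene rows of the tables. The symbols were, however, chosen with earlier results of these data known. Their transcripts were counted in peripheral blood mononuclear cells of rhesus macaques by droplet single-cell RNA sequencing of transcript 5′ ends, in a study of islets made from human pluripotent stem cells. There were 4 libraries, 1 per group. Pre-IS blood was drawn before immunosuppression, and Post-IS blood after immunosuppression but ahead of the cell transplant. The libraries called 4 wpt and 8 wpt came from blood drawn 4 and 8 weeks after transplantation. The labels name no immunosuppressive drug, no animal and no age, so it is not known whether the libraries share an animal or whether treatment went on after the transplant. Differences between libraries therefore cannot be told apart from differences between animals or between preparations, and no test between groups was made.

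Naive lymphocytes become cytotoxic or cytokine-producing effector cells under a small set of transcription factors. The T-box factors TBX21 (T-bet) and EOMES drive interferon gamma and cytotoxic genes in T and NK cells, RUNX3 acts with them in the CD8 and NK lineages, and ZEB2 is a zinc finger repressor that works downstream of T-bet in terminal effector cells. PRDM1 (Blimp-1) represses naive and memory genes and also drives plasma cells, ID2 blocks E proteins by binding them without touching DNA, and HOPX is a small homeodomain protein found in cytotoxic and resident memory lymphocytes.

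The Pre-IS, Post-IS, 4 wpt and 8 wpt libraries held 1928, 603, 1882 and 2580 cells with a cell type label given by the authors, and the median unique molecular identifiers (UMIs, counted transcript molecules) per cell were 1563, 1168, 3551 and 1877. Libraries thus differed in depth, with 4 wpt cells the deepest and Post-IS cells the shallowest. The T cell label covered 841, 115, 889 and 1174 cells and the NK cell label 257, 9, 270 and 659 cells. The proliferating NK/T label covered 8, 2, 41 and 30 cells. Each pair of libraries shared at most 12 cell barcodes. Of the T cell markers, 8 of 8 had UMIs in the T label of every library, and they summed to 2797 to 3383 CPM, UMIs of a gene per 1000000 UMIs. In the NK label the same markers summed to 456 to 567 CPM. Of the 8 markers, 6, 3, 6 and 7 had UMIs there in Pre-IS, Post-IS, 4 wpt and 8 wpt. CD5 and CD28 were at 0 in the Pre-IS, Post-IS and 4 wpt libraries and CD28 at 0 at 8 wpt. NK markers summed to 16626 to 24493 CPM in the NK label and to 3672, 1906, 2711 and 3824 CPM in the T label of the Pre-IS, Post-IS, 4 wpt and 8 wpt libraries. Several of those NK markers are also made by cytotoxic T cells, and the part that NK cells under the T label have in the T cell results was not tested. Nor was the part that T cells under the NK label have in the NK results.

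A level is the UMIs of a gene summed over the cells of a label and library, divided by all UMIs of those cells, in CPM. Ranges in brackets are exact 95% intervals (Poisson for a level, conditional binomial for a ratio, Clopper-Pearson for a percent) and cover counting error only, not the spread between animals. Intervals from UMIs also leave out the spread between cells, as UMIs of the same cell were taken as separate counts. Libraries were compared where both had at least 50 cells of the label, and a fold of 1.5 or more in the summed levels was counted as a difference past the limit. In a library with 0 UMIs of a gene, the fold was taken against a floor of 3 counts. Because 5′ tags of different genes are captured with different efficiency, levels are compared for 1 gene at a time.

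Among Pre-IS, 4 wpt and 8 wpt T cells, TBX21 and ZEB2 were the only members with differences past 1.5-fold. TBX21 was at 45.9 CPM (35.2 to 58.9) in Pre-IS T cells, 0 (0 to 25.7) in Post-IS, 22.4 (17.5 to 28.2) at 4 wpt and 53.3 (44.1 to 63.7) at 8 wpt, from 62, 0, 71 and 119 UMIs. The Pre-IS and 8 wpt intervals overlapped each other and lay above that of 4 wpt, while the Post-IS and 4 wpt intervals overlapped. The 4 wpt level was 2.05-fold lower than Pre-IS (1.44 to 2.93), and the 8 wpt level was 2.38-fold higher than 4 wpt (1.76 to 3.24). Between the outer time points, 8 wpt over Pre-IS, the ratio was 1.16 (0.846 to 1.60), so no difference was detectable at this depth. The Post-IS T cells were few. At the Pre-IS level 6.60 TBX21 UMIs would have been counted in them and none was, which puts Post-IS at least 2.20-fold below Pre-IS. That bound leaves out the counting error of the Pre-IS library, and the exact bound is 1.74. With cells thinned to 1000 UMIs, which leaves fewer UMIs, the floor puts the log2 ratio at -0.48, under the 1.5-fold limit.

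**Figure D1:**
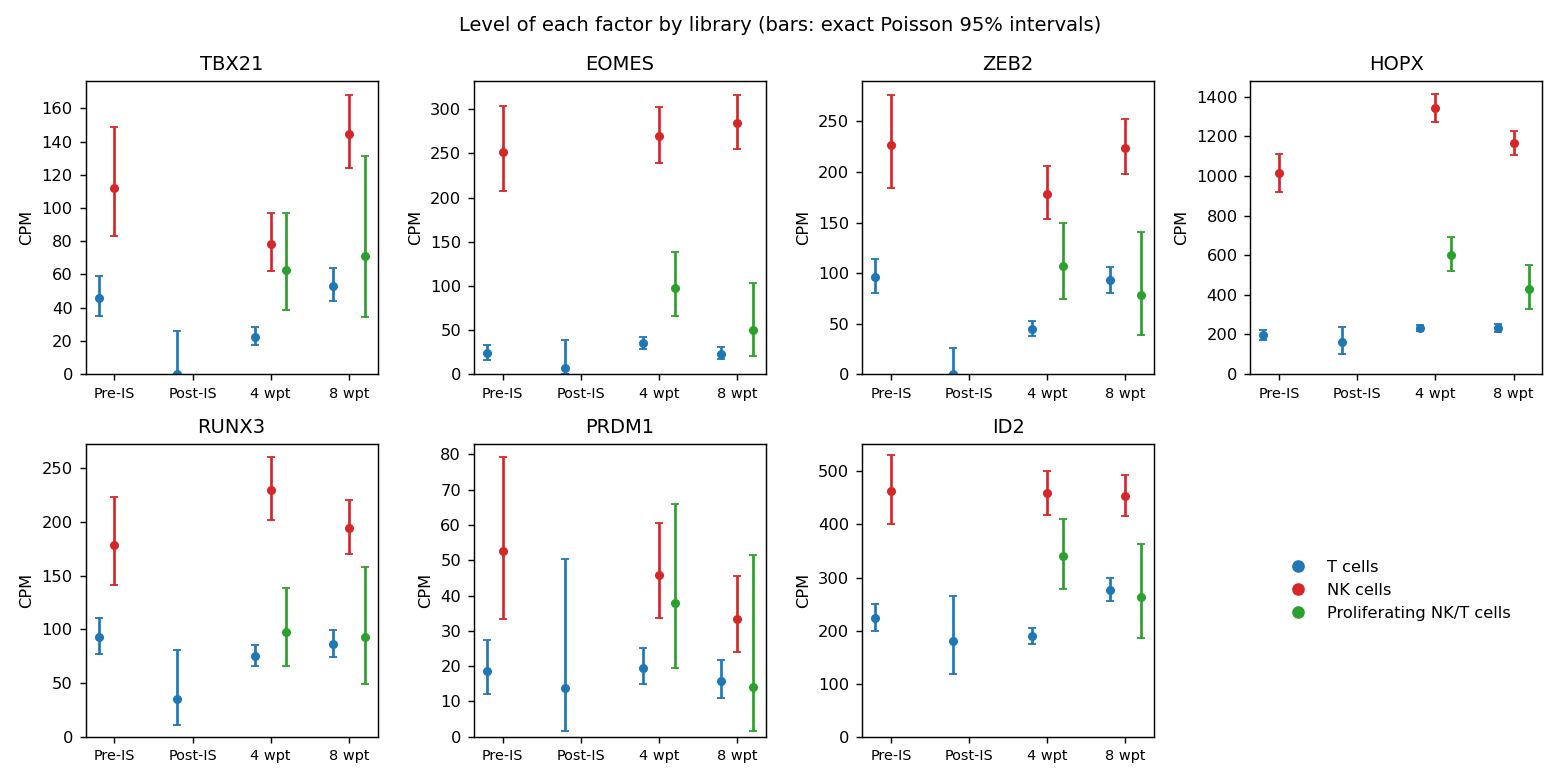
Levels of the 7 factors by library, 1 panel per gene. The x axis gives the library and the y axis the summed level in CPM from 0; points are T cell, NK cell and proliferating NK/T cell labels with at least 30 cells, and bars are exact 95% Poisson intervals. TBX21 and ZEB2 in T cells are at 0 in Post-IS and lower at 4 wpt than in Pre-IS and at 8 wpt, and NK levels lie above T cell levels for every factor.

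ZEB2 followed the same order of libraries in T cells. Its level was 96.3 CPM (80.5 to 114) in Pre-IS, 0 (0 to 25.7) in Post-IS, 44.8 (37.7 to 52.8) at 4 wpt and 92.7 (80.5 to 106) at 8 wpt, from 130, 0, 142 and 207 UMIs. Pre-IS and 8 wpt were alike within counting error, with a ratio of 0.962 (0.769 to 1.21), and both intervals lay above the other libraries. The 4 wpt level was 2.15-fold lower than Pre-IS (1.68 to 2.75), and the 8 wpt level was 2.07-fold higher than 4 wpt (1.66 to 2.58). In Post-IS T cells 13.8 ZEB2 UMIs would have been counted at the Pre-IS level. None was found, a level at least 4.61-fold lower (exact bound 3.70), and at log2 -1.59 from the floor after thinning.

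EOMES did not share that order. It was at 23.7 CPM (16.2 to 33.5) in Pre-IS T cells, 6.96 (0.176 to 38.8) in Post-IS from a single UMI, 34.7 (28.5 to 41.8) at 4 wpt and 23.3 (17.4 to 30.5) at 8 wpt. EOMES was thus highest in the library in which TBX21 and ZEB2 were low, although neighbouring intervals overlapped. The 8 wpt over 4 wpt ratio was 0.671 (0.473 to 0.941), just inside the 1.5-fold limit, and the 4 wpt over Pre-IS ratio was 1.46 (0.979 to 2.24). Post-IS EOMES was 3.41-fold lower than Pre-IS, with an interval (0.569 to 139) that holds 1.

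The relation of the T-box pair can be read from the share of TBX21 in the summed TBX21 and EOMES UMIs, a measure chosen after the levels were seen. The share in T cells was 66.0% (55.5 to 75.4) for the Pre-IS library, 39.2% (32.1 to 46.7) for 4 wpt and 69.6% (62.1 to 76.4) for 8 wpt. Post-IS T cells gave 0 of 1 UMI and no usable share. Because capture differs between the genes, the share is compared between libraries and labels. Which gene of the pair had more UMIs is not read as a result. With each cell thinned to 1000 UMIs drawn at random, which removes the depth gap and leaves out 88, 30, 35 and 52 shallower T cells of the 4 libraries, the shares were 64.9% (51.1 to 77.1), 35.4% (22.2 to 50.5) and 66.7% (56.5 to 75.8). In NK cells the TBX21 share was 30.8% (23.8 to 38.6), 22.5% (18.3 to 27.1) and 33.7% (29.6 to 38.0) for the same libraries. The proliferating NK/T label gave 39.2% (25.8 to 53.9) at 4 wpt and 58.8% (32.9 to 81.6) at 8 wpt, with overlapping intervals.

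**Figure D2:**
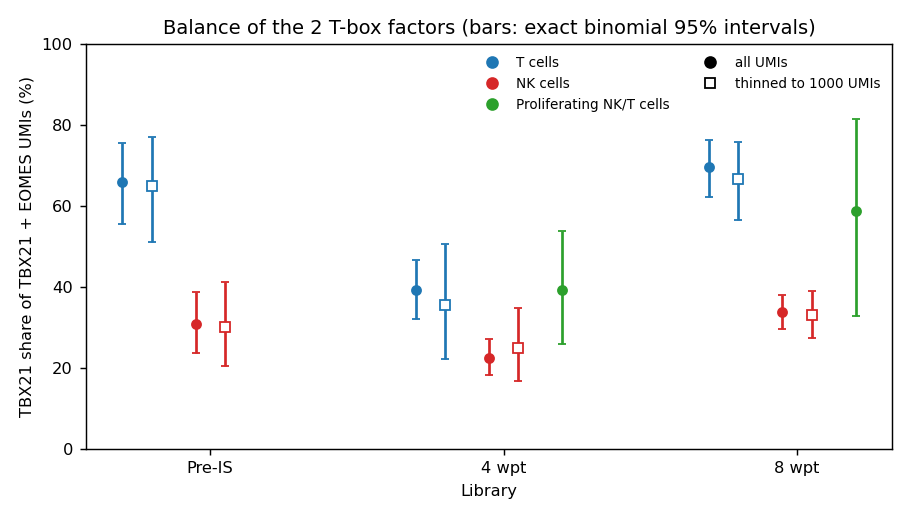
TBX21 as a percent of the summed TBX21 and EOMES UMIs (y axis, 0 to 100%) in T and NK cells of the Pre-IS, 4 wpt and 8 wpt libraries (x axis). Proliferating NK/T cells are drawn at 4 wpt and 8 wpt only, from all UMIs. Circles are all UMIs, squares are cells thinned to 1000 UMIs, and bars are exact 95% Clopper-Pearson intervals. The T cell share is 39.2% at 4 wpt, against 66.0% in Pre-IS and 69.6% at 8 wpt.

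HOPX and ID2, the members found in the most T cells, differed less. HOPX was at 196 CPM (173 to 221) in Pre-IS T cells, 160 (101 to 240) in Post-IS, 232 (215 to 249) at 4 wpt and 232 (212 to 253) at 8 wpt. Its level was 1.18-fold higher at 4 wpt than in Pre-IS (1.03 to 1.36), and the 8 wpt over 4 wpt ratio was 1.00 (0.892 to 1.12). HOPX therefore had no low point at 4 wpt. ID2 was at 224 CPM (199 to 250) in Pre-IS, 181 (118 to 265) in Post-IS, 190 (175 to 206) at 4 wpt and 277 (255 to 299) at 8 wpt. The ID2 level at 8 wpt was 1.46-fold above 4 wpt (1.30 to 1.63) and 1.24-fold above Pre-IS (1.08 to 1.42), both under the 1.5-fold limit.

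RUNX3 was at 92.6 CPM (77.1 to 110) in Pre-IS T cells, 34.8 (11.3 to 81.2) in Post-IS, 75.1 (65.8 to 85.2) at 4 wpt and 86.4 (74.6 to 99.5) at 8 wpt. The Pre-IS, 4 wpt and 8 wpt intervals of this gene overlapped. The 5 Post-IS UMIs stood against 13.3 that the Pre-IS level would give, a level 2.66-fold lower (1.11 to 8.34). PRDM1 was at 18.5 CPM (12 to 27.3), 13.9 (1.69 to 50.3), 19.6 (15 to 25.1) and 15.7 (10.9 to 21.8) in the same order, and all 4 intervals overlapped. Blimp-1 transcripts were rare in T cells of every library, with 2 to 62 UMIs in all.

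Percentages of T cells with a UMI followed depth as well as level. ZEB2 was found in 12% of Pre-IS T cells, in none of 115 Post-IS T cells, in 11.1% at 4 wpt and in 13.8% at 8 wpt. After thinning to 1000 UMIs these were 8.90%, 0%, 4.68% and 9.36%. TBX21 was found in 6.06%, 0%, 6.75% and 8.86% of T cells as deposited and in 4.65%, 0%, 1.87% and 5.44% after thinning. For both genes the 4 wpt percentage, similar to Pre-IS as deposited, was the lower of the pair once depth was equal, as were the CPM. By the floor of 3 counts, 0 of 115 cells allows up to 2.61% of Post-IS T cells to hold a UMI, and the exact 95% interval reaches 3.16%. In CD14+ monocytes, which lack T-bet, TBX21 was found in 0%, 0%, 0.641% and 0% of cells at median depths of 2058, 1196, 3190 and 2854 UMIs, against 1526, 1257, 3626 and 1810 in T cells. The T cell percentages of TBX21 in the Pre-IS, 4 wpt and 8 wpt libraries were thus above those in CD14+ monocytes. The part of free RNA in either label was not tested.

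The other members showed the same effect of depth. EOMES was found in 3.57%, 0.870%, 8.55% and 3.66% of T cells of the Pre-IS, Post-IS, 4 wpt and 8 wpt libraries, and in 2.66%, 1.18%, 3.16% and 2.67% after thinning. HOPX was found in 20.3%, 10.4%, 25.5% and 25.7%, and in 16.5%, 9.41%, 16.3% and 18.3% after thinning. RUNX3 and ID2, found in 20.5% and 36.8% of 4 wpt T cells as deposited, came to 8.20% and 14.9% there after thinning. ID2 stood at 18.2%, 16.5% and 24.1% in the Pre-IS, Post-IS and 8 wpt libraries after thinning, so 4 wpt had its lowest percentage.

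Counts of members past 1.5-fold were read against all genes with at least 20 UMIs over the libraries compared. For Post-IS over Pre-IS T cells, 4 of 7 members were lower (TBX21, EOMES, ZEB2 and RUNX3) and 0 were higher, where 25.4% of 6612 genes were lower and 14.4% higher. For 4 wpt over Pre-IS, 2 of 7 were lower (TBX21 and ZEB2) and 0 higher, beside 7.15% and 13.3% of all genes. For 8 wpt over 4 wpt, TBX21 and ZEB2 were higher and 0 lower, beside 6.84% and 8.53%. None of the 7 was past the limit for 8 wpt over Pre-IS, where 9.08% of genes were higher and 5.52% lower. Against Post-IS, 3 of 7 members were higher at 4 wpt (EOMES, ZEB2 and RUNX3, background 23.6%) and 5 of 7 at 8 wpt (those and TBX21 and ID2, background 26.0%). Of these ratios, the intervals of EOMES (0.876 to 199) and RUNX3 (0.912 to 6.7) at 4 wpt and of EOMES at 8 wpt (0.57 to 135) hold 1. No member was lower there, beside 14.4% and 14.6%. These comparisons share libraries, so the return from a low 4 wpt or Post-IS value is not a separate result from the low value itself.

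**Figure D3:**
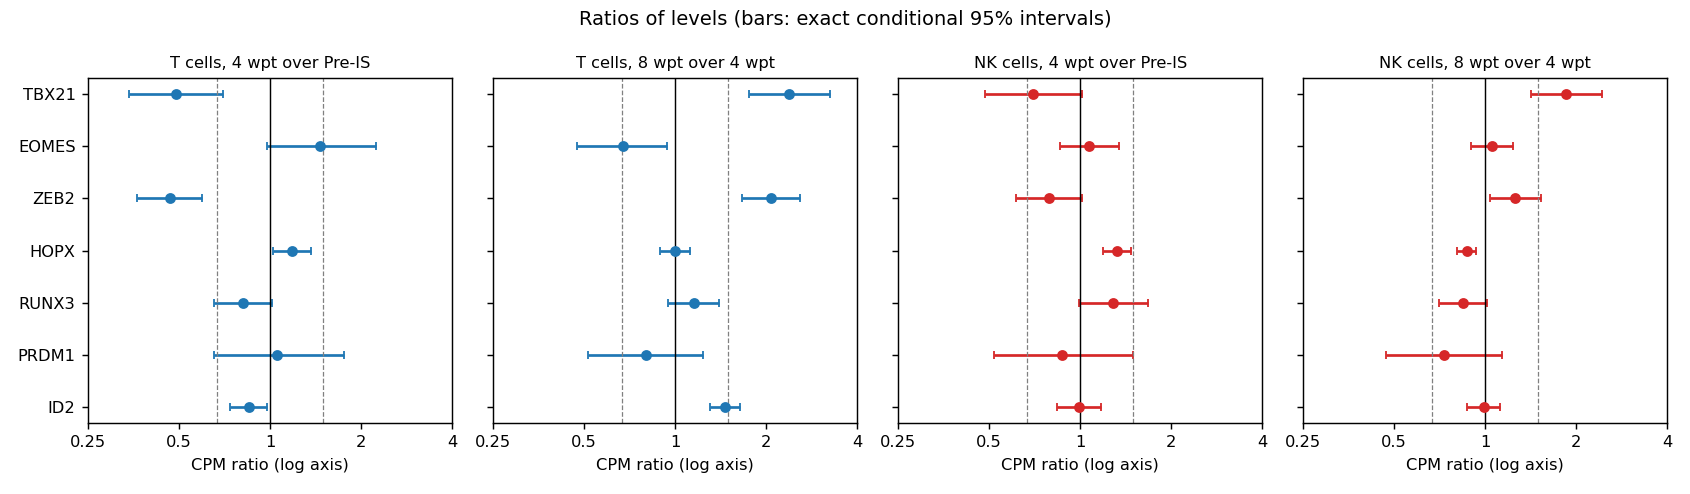
Ratios of summed levels for the 7 factors (y axis) in T and NK cells, 4 wpt over Pre-IS and 8 wpt over 4 wpt, on a log x axis. Points are CPM ratios, bars exact 95% intervals, and dashed lines mark 1.5-fold either way. TBX21 and ZEB2 in T cells lie beyond the lines on the lower side for 4 wpt over Pre-IS and on the higher side for 8 wpt over 4 wpt, and the only NK point beyond them is TBX21 for 8 wpt over 4 wpt at 1.85.

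Every member was higher in NK cells than in T cells in each library with at least 50 NK cells. The NK over T ratio of EOMES was 10.6 (7.12 to 16.3) in Pre-IS, 7.78 (6.22 to 9.78) at 4 wpt and 12.2 (9.11 to 16.7) at 8 wpt. HOPX followed with ratios of 5.16, 5.79 and 5.02. The ratios of TBX21 were 2.45, 3.49 and 2.72, and those of ZEB2 were 2.36, 3.98 and 2.42. RUNX3 (1.93, 3.06 and 2.25), PRDM1 (2.85, 2.34 and 2.14) and ID2 (2.07, 2.42 and 1.64) were also past the limit throughout. Thus 7 of 7 members were at least 1.5-fold higher in NK cells in these 3 libraries, where 16.9%, 15.4% and 14.5% of all genes were. The T label also holds cells without cytotoxic transcripts, divided off below after thinning. In Pre-IS cytotoxic T cells TBX21 was at 117 CPM and ZEB2 at 255, against 112 and 227 in NK cells. RUNX3, PRDM1 and ID2 were at 172, 51.7 and 372 CPM, against 179, 52.7 and 463. EOMES and HOPX were at 58.6 and 510 CPM, against 252 and 1013. At 4 wpt TBX21 was at 53.2 CPM against 78.2 and ZEB2 at 152 against 178.

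In NK cells TBX21 was at 112 CPM (83.1 to 149) in Pre-IS, 78.2 (62.2 to 97.0) at 4 wpt and 145 (124 to 168) at 8 wpt. The 4 wpt level was again the lowest, with an 8 wpt over 4 wpt ratio of 1.85 (1.42 to 2.44) and a 4 wpt over Pre-IS ratio of 0.696 (0.483 to 1.01). TBX21 was found in 26.7% of 4 wpt and 23.2% of 8 wpt NK cells as deposited, and in 8.68% and 13.2% after thinning. ZEB2 was at 227 CPM (184 to 276), 178 (154 to 206) and 224 (198 to 253), and the 8 wpt over 4 wpt ratio was 1.26 (1.04 to 1.52). EOMES was at 252 CPM (207 to 304), 270 (239 to 303) and 284 (255 to 316), with overlapping intervals. The 9 Post-IS NK cells held 2 UMIs of TBX21, 3 of EOMES, 0 of ZEB2, 9 of HOPX, 2 of RUNX3, 0 of PRDM1 and 5 of ID2, too few to place a level.

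The remaining members varied little among NK cells. HOPX was at 1013 CPM (921 to 1112) in Pre-IS, 1341 (1272 to 1413) at 4 wpt and 1164 (1103 to 1226) at 8 wpt, highest in the library in which TBX21 was lowest, with 4 wpt 1.32-fold above Pre-IS (1.19 to 1.48). RUNX3 was at 179 CPM (141 to 223), 230 (202 to 261) and 194 (170 to 221). ID2 was at 463 (401 to 531), 459 (418 to 501) and 453 CPM (416 to 493), the steadiest of the 7 in this label. PRDM1 was at 52.7 (33.4 to 79.1), 45.8 (33.7 to 60.7) and 33.5 CPM (23.9 to 45.6), and its 8 wpt level was 1.58-fold lower than Pre-IS with an interval (0.900 to 2.70) that holds 1. In NK cells 1 of 7 members was higher for 8 wpt over 4 wpt (TBX21, background 8.96%) and 0 were lower (9.08%). None was past the limit for 4 wpt over Pre-IS (17.5% of genes higher, 9.31% lower). PRDM1 alone was lower for 8 wpt over Pre-IS (6.89%) and none higher (15.4%), so these NK counts were near the background.

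Proliferating NK/T cells, marked by cell cycle genes that summed to 5414 and 6801 CPM at 4 and 8 wpt, carried all 7 members. TBX21 was at 62.9 CPM (38.4 to 97.2) at 4 wpt and 71.2 (34.2 to 131) at 8 wpt, and EOMES at 97.5 (66.3 to 138) and 49.9 (20 to 103). ZEB2 was at 107 CPM (74.1 to 150) and 78.3 (39.1 to 140), HOPX at 601 (519 to 692) and 427 (326 to 550), and RUNX3 at 97.5 (66.3 to 138) and 92.6 (49.3 to 158). ID2 was at 340 CPM (279 to 410) and 264 (186 to 363), and PRDM1 at 37.8 (19.5 to 66.0) and 14.2 (1.73 to 51.5). All intervals of the pair overlapped, and with 41 and 30 cells no ratio was taken. In the 8 Pre-IS cells of this label EOMES had 1 UMI, HOPX 5, PRDM1 4 and the rest 0. The 2 Post-IS cells had none of any member.

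PRDM1 also marks plasma cells, so cells with at least 2 plasma cell markers were counted, a check added after the values were seen. Of the proliferating cells with a PRDM1 UMI (3 in Pre-IS, 9 at 4 wpt and 2 at 8 wpt), 0, 0 and 1 held at least 2 plasma cell markers, and 3, 8 and 1 held a CD3 UMI. In the B cell label, 28, 4, 15 and 22 cells of the 4 libraries held at least 2 plasma cell markers, and they carried 0, 1, 5 and 2 of the 0, 1, 7 and 6 PRDM1 UMIs of that label. Plasma cell markers summed to 313, 9.44 and 256 CPM in the proliferating label of Pre-IS, 4 wpt and 8 wpt, and their part in its PRDM1 level was not tested.

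T cells were next divided by cytotoxic transcripts. After thinning to 1000 UMIs, a T cell counted as cytotoxic when at least 2 of the genes GZMB, PRF1, GZMA, GZMK, GNLY, NKG7, CST7 and KLRD1 had a UMI; this is a range of cells and not a cell type, and 90, 6, 112 and 105 cells lay beside the division. Such cells made up 38.5% (35.0 to 42.1) of T cells in Pre-IS, 12.9% (6.64 to 22.0) in Post-IS, 30.8% (27.7 to 34.0) at 4 wpt and 48.0% (45.1 to 51.0) at 8 wpt. As for TBX21 and ZEB2 in all T cells, Post-IS was the lowest library and 4 wpt the next.

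Nearly all TBX21 and ZEB2 UMIs of T cells were in this cytotoxic part. It held 91.9% of thinned TBX21 UMIs in Pre-IS, 82.4% at 4 wpt and 100% at 8 wpt, and 92.5%, 88.9% and 100% of those of ZEB2. TBX21 was 18.1-fold higher in cytotoxic than in other T cells in Pre-IS (5.69 to 92.1), 10.5-fold at 4 wpt and at least 23.8-fold at 8 wpt (exact bound 18.8). ZEB2 was 19.7-fold higher (8.63 to 55.4), 18.0-fold and at least 45.4-fold (exact bound 36.4). HOPX was also concentrated there, by 10.7-fold, 17.3-fold and 41.4-fold. RUNX3 (3.47, 2.50 and 4.74-fold) and ID2 (3.03, 2.84 and 2.65-fold) were spread more widely, and the cytotoxic part held 52.7% to 81.4% of the RUNX3 UMIs. EOMES was 9.05, 4.09 and 3.38-fold higher in cytotoxic cells and PRDM1 7.98, 4.87 and 2.16-fold, the last with an interval (0.874 to 5.84) that holds 1.

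The 4 wpt difference was also present within the cytotoxic part. TBX21 there was at 117 CPM (81.2 to 164) in Pre-IS, 53.2 (29.1 to 89.3) at 4 wpt and 122 (94.7 to 156) at 8 wpt. The 4 wpt cytotoxic cells had a TBX21 level 0.454 times that of Pre-IS (0.225 to 0.869), and 8 wpt was 2.30-fold above 4 wpt (1.28 to 4.44). ZEB2 was at 255, 152 and 234 CPM, with ratios of 0.596 (0.395 to 0.887) and 1.54 (1.07 to 2.25). EOMES was at 58.6, 76.1 and 46.4 CPM, and its 8 wpt over 4 wpt ratio of 0.610 (0.325 to 1.16) has an interval that holds 1. HOPX was at 510, 673 and 497 CPM, so its 4 wpt level was the highest, 1.32-fold above Pre-IS (1.05 to 1.65). As a share of the RNA of cytotoxic T cells, then, TBX21 and ZEB2 were lower at 4 wpt and HOPX was not.

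**Figure D4:**
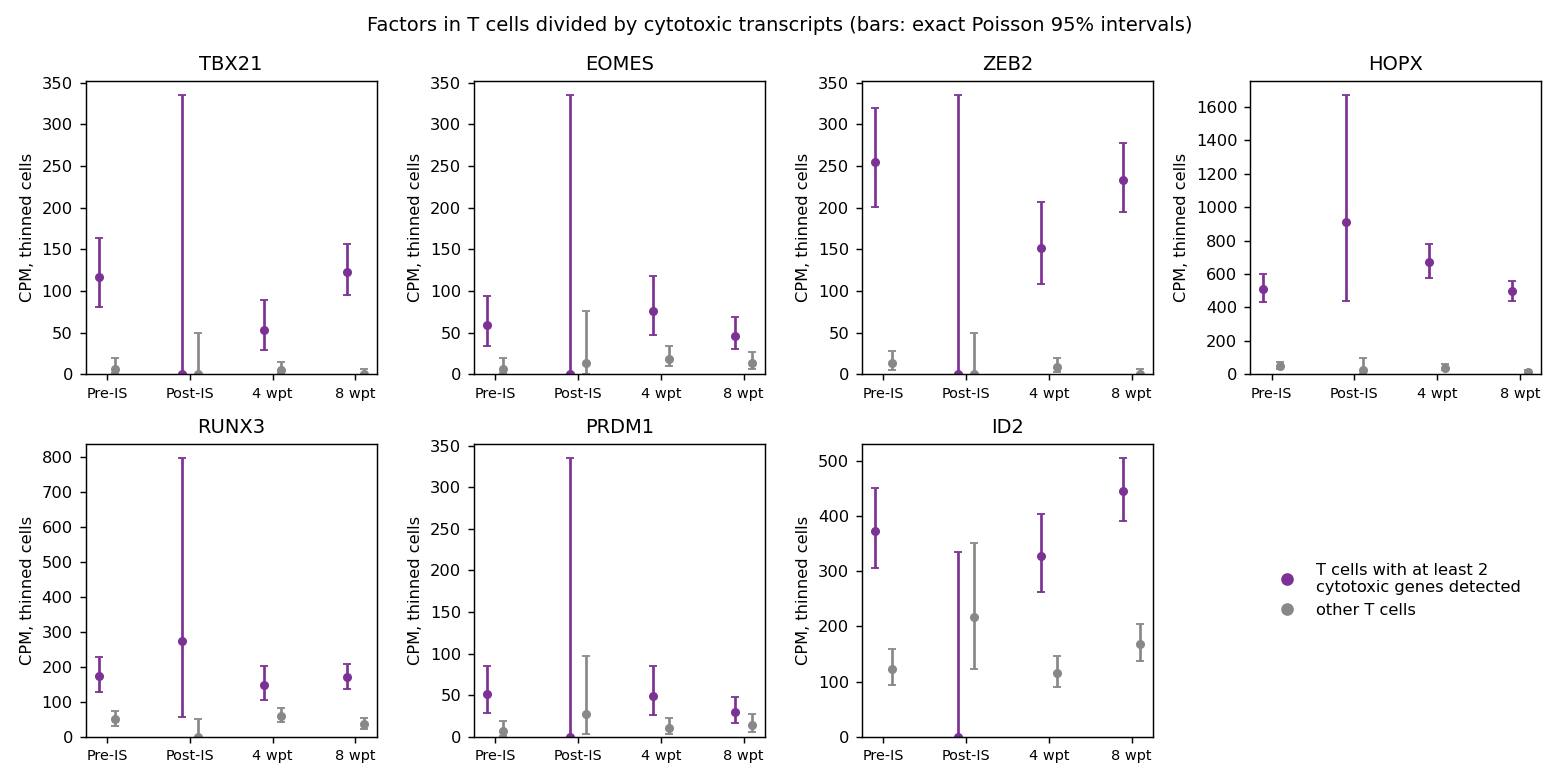
Levels of the 7 factors in T cells with at least 2 cytotoxic transcripts and in other T cells, by library. The y axis is CPM from UMIs of cells thinned to 1000, the x axis is the library, and bars are exact 95% Poisson intervals. TBX21 and ZEB2 lie near 0 in other T cells of every library, and in cytotoxic cells both are lower at 4 wpt than in Pre-IS and at 8 wpt.

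The Post-IS zeros cannot be placed within the cytotoxic part. It held 11 cells after thinning, in which the Pre-IS level of cytotoxic cells would give 1.29 TBX21 and 2.81 ZEB2 UMIs, and 0 of either was counted. HOPX had 10 UMIs there where 5.61 would be counted at the Pre-IS level and RUNX3 had 3 for 1.90. ID2 had 0 for 4.10, although the other Post-IS T cells held 16 ID2 UMIs, 216 CPM. Whether the Post-IS zeros of TBX21 and ZEB2 go with fewer cytotoxic T cells or less RNA of each gene per cell could not be told apart at this depth.

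A division by CD8 and CD4 UMIs gave few cells. T cells with CD8A or CD8B and without CD4 numbered 149, 9, 176 and 224, and TBX21 in them was at 94.0, 0, 28.4 and 62.5 CPM. T cells with CD4 and no CD8 numbered 78, 9, 85 and 80, with TBX21 at 12.8, 0, 23.5 and 50 CPM, from 1 to 4 UMIs in the libraries that had any. In the CD8 cells 4 wpt was again the lowest library with a TBX21 UMI, from 14, 5 and 14 UMIs in Pre-IS, 4 wpt and 8 wpt. The 4 wpt over Pre-IS ratio was 0.302 (0.0852 to 0.888), and that of 8 wpt over 4 wpt was 2.20 (0.749 to 7.81). In CD8 cells that were also cytotoxic, 4 wpt over Pre-IS was 0.378 (0.107 to 1.11) for TBX21 and 0.51 (0.241 to 1.02) for ZEB2. For 8 wpt over 4 wpt they were 1.70 (0.577 to 6.02) and 2.42 (1.30 to 4.85). The CD4 values are too small to order.

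Members were found together in the same T cells. At least 2 of the 7 had a UMI in 19.4% of Pre-IS T cells, 7.83% of Post-IS, 29.0% at 4 wpt and 29.0% at 8 wpt, and in 14.1%, 5.88%, 11.0% and 18.4% after thinning. In NK cells the thinned percentages were 54.8% in Pre-IS, 61.1% at 4 wpt and 59.9% at 8 wpt, well above those of T cells. ZEB2 was found in 39.2% of T cells with TBX21 against 10.3% of those without in Pre-IS, in 36.7% against 9.29% at 4 wpt and in 36.5% against 11.6% at 8 wpt. After thinning the pairs were 31.4% against 7.80%, 31.3% against 4.18% and 26.2% against 8.39%, so the gap was also present at equal depth. The thinned 4 wpt T cells with TBX21 were few, 14 without EOMES and 2 with it. Both TBX21 and ZEB2 lay mostly in cytotoxic T cells, and the part of that in the gap was not tested. EOMES was found in 1.98% of T cells with ZEB2 against 3.78% of those without in Pre-IS, 12.1% against 8.10% at 4 wpt and 1.85% against 3.95% at 8 wpt. TBX21 and EOMES were found in the same T cell in 2, 0, 11 and 6 cells. In NK cells ZEB2 was found in 33.3% of cells with TBX21 against 28.8% of the rest in Pre-IS, 52.8% against 39.9% at 4 wpt and 32.7% against 31.0% at 8 wpt, smaller gaps than in T cells, with no test of that difference.

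**Figure D5:**
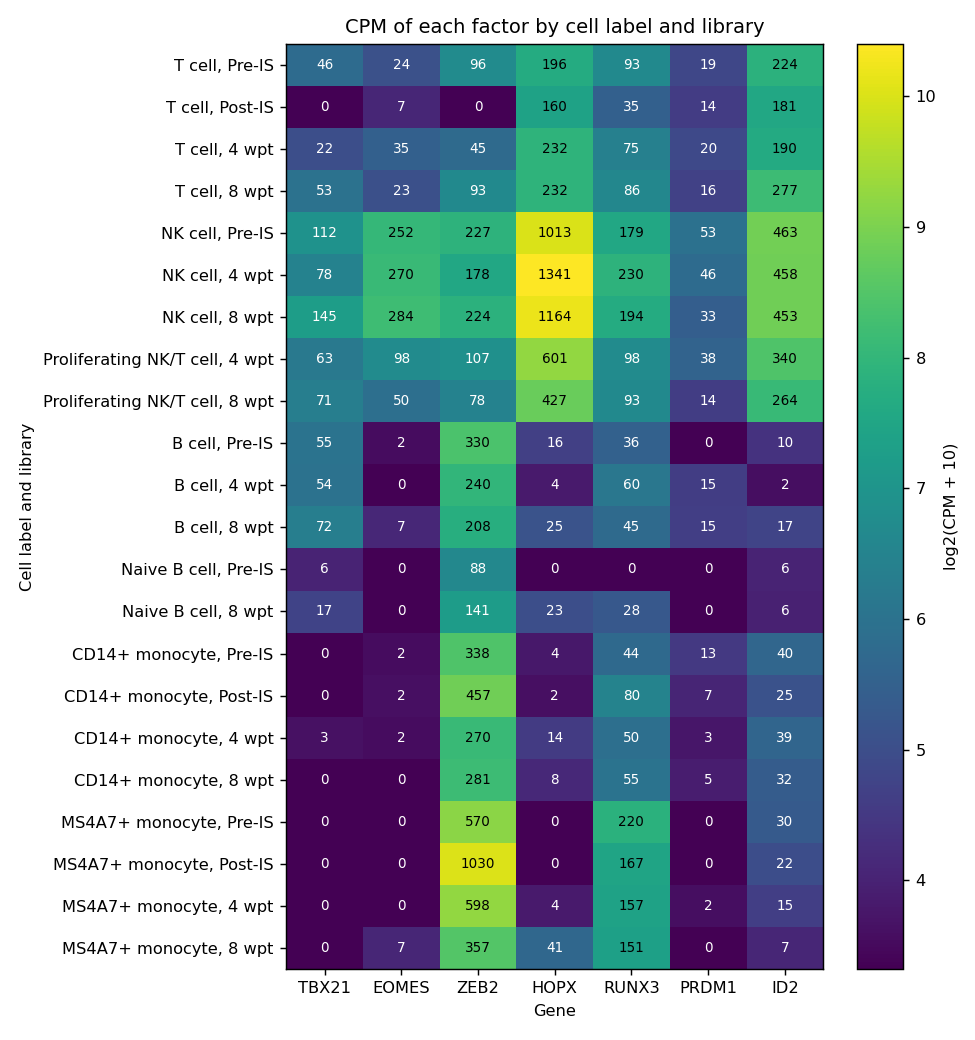
Heat map of the 7 factors (columns) across labels and libraries with at least 30 cells (rows). Colour is log2 of the CPM plus 10 and the printed numbers are CPM. Outside T, NK and proliferating cells EOMES is near 0 and HOPX is at most 41.2 CPM. ZEB2 is highest in MS4A7+ monocytes, and TBX21 is also seen in B cells.

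Across the labels with at least 50 cells each factor had its own pattern. In the Pre-IS, 4 wpt and 8 wpt libraries EOMES, HOPX and ID2 were highest in NK cells and then in T cells, with intervals that did not overlap. TBX21 was highest in NK cells, then in B cells and T cells, and at 4 wpt the NK and B cell intervals overlapped while T cells lay below both. RUNX3 was highest in NK cells and MS4A7+ monocytes, whose intervals overlapped in Pre-IS and at 8 wpt, then in T cells, while PRDM1 was highest in NK cells and then in T cells, whose intervals did not overlap. HOPX and ID2 were higher in T and NK cells than in B cells and monocytes: HOPX reached at most 41.2 CPM in any monocyte label and library, and ID2 stood at 6.87 to 40.1 CPM in monocytes and 2.07 to 17.3 CPM in B cells of the Pre-IS, 4 wpt and 8 wpt libraries. EOMES had at most 2 UMIs in either monocyte label of any library. ZEB2 was highest in MS4A7+ monocytes, at 570 CPM in Pre-IS, 1030 in Post-IS, 598 at 4 wpt and 357 at 8 wpt, against 338, 457, 270 and 281 CPM in CD14+ monocytes. The intervals of these labels overlapped at 8 wpt, and CD14+ monocytes overlapped B cells in the Pre-IS, 4 wpt and 8 wpt libraries. While ZEB2 was at 0 in Post-IS T cells, it was 1.81-fold above Pre-IS in Post-IS MS4A7+ monocytes (1.32 to 2.50; 18.4% of genes were that much higher) and 1.35-fold above in CD14+ monocytes (1.10 to 1.66). RUNX3 was at 220, 167, 157 and 151 CPM in MS4A7+ monocytes and 43.8, 80.3, 50.2 and 54.9 CPM in CD14+ monocytes, 2.08 to 5.02 times as high in the MS4A7+ label. Monocyte markers summed to 28.2, 139, 51.4 and 73.9 CPM in T cells, so the Post-IS T cells without ZEB2 had the most monocyte transcripts. Dendritic cells (4 to 30 per library) held no UMI of TBX21, EOMES or PRDM1, and ZEB2 at 106 to 415 CPM.

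B cells were the other label with TBX21. The B cell label, kept apart by the authors from naive B cells, held 351, 12, 114 and 178 cells, with TBX21 at 55.2 CPM (37.8 to 78.0) in Pre-IS, 0 in Post-IS, 53.9 (35.2 to 79.0) at 4 wpt and 71.8 (48.1 to 103) at 8 wpt. The 4 wpt over Pre-IS ratio was 0.976 (0.558 to 1.69), an interval that holds 1 and overlaps that of T cells, and the B cell intervals overlapped those of T cells in Pre-IS and at 8 wpt. Naive B cells had 1 TBX21 UMI in Pre-IS (6.30 CPM) and 3 at 8 wpt (17.0 CPM). B cells over naive B cells gave TBX21 ratios of 8.76 (1.46 to 357) and 4.24 (1.31 to 21.7), where 29.7% and 29.8% of genes were at least 1.5-fold higher. EOMES was near 0 in B cells, at 1.73, 0, 0 and 7.43 CPM. ZEB2 in B cells was at 330, 36.8, 240 and 208 CPM, and its 8 wpt level was 1.59-fold lower than Pre-IS (1.22 to 2.07; 11.8% of genes were that much lower).

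The B cells with a TBX21 UMI were looked at after this level was seen. There were 26 in Pre-IS, 22 at 4 wpt and 27 at 8 wpt, and CD79A, a part of the B cell receptor, was found in 92.3%, 95.5% and 100% of them. The T cell receptor genes CD3D (7.69%, 9.09% and 7.41%), CD3E (3.85%, 0% and 0%) and CD3G (0%, 22.7% and 18.5%) were found in fewer of them. In B cells without TBX21, CD3G was found in 6.15%, 8.70% and 7.95%, and the part of T cell transcripts in these results was not tested. ZEB2 was found in 53.9%, 68.2% and 55.6% of B cells with TBX21 against 37.2%, 43.5% and 30.5% of those without. ITGAX, which encodes the integrin CD11c, was found in 50%, 95.5% and 66.7% against 39.4%, 48.9% and 43.7%. The intervals with and without TBX21 overlapped for ZEB2 in each of these libraries and for ITGAX in Pre-IS and at 8 wpt. Only those of ITGAX at 4 wpt were apart (77.2 to 99.9 against 38.3 to 59.6). Median depths with and without TBX21 were 1576 and 1506 UMIs in Pre-IS, 4330 and 3744 at 4 wpt, and 2181 and 2128 at 8 wpt, so the cells with TBX21 were slightly deeper, and the part of depth in these percentages was not tested.

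Genes known as targets or companions of the members were compared in the same way, from a list of names chosen with earlier results of these data known. The list includes all the genes used above to divide T cells. Its T cell counts are therefore in part not separate from the share of cytotoxic T cells. Of 16 such effector genes measured for Post-IS over Pre-IS, 13 were at least 1.5-fold lower and 0 higher, beside 25.4% and 14.4% of all genes, with a median log2 ratio of -1.10 against -0.09 over all genes. GZMB, the granzyme B protease, was at 1865 CPM in Pre-IS and 369 in Post-IS, 5.06-fold lower (3.85 to 6.77). CX3CR1, a chemokine receptor of terminal effector cells, was at 139 CPM and 0, at least 6.67-fold lower. NKG7, a cytotoxic granule protein, was 2.58-fold lower and CST7, a protease inhibitor of granules, 2.81-fold lower. For 4 wpt over Pre-IS, 6 of 18 were lower and 0 higher (7.15% and 13.3% of all genes, median log2 -0.25, all genes 0.05), and for 8 wpt over 4 wpt, 7 of 18 were higher and 0 lower (6.84% and 8.53% of all genes, median 0.35, all genes -0.00). S1PR5, a sphingosine phosphate receptor used in egress, was at 37.0 CPM in Pre-IS, 10.7 at 4 wpt and 37.6 at 8 wpt, 3.51-fold higher at 8 than at 4 wpt (2.33 to 5.39). For the same pair CX3CR1 was 2.28-fold higher (1.95 to 2.66), KLRD1, the CD94 receptor chain, 2.27-fold (2.06 to 2.50) and NKG7 1.71-fold (1.62 to 1.81).

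Against Post-IS, 11 of 18 effector genes were higher at 4 wpt and 14 of 18 at 8 wpt, with 0 lower in either, where 23.6% and 26.0% of all genes were higher and 14.4% and 14.6% lower. For 8 wpt over Pre-IS, 2 of 18 were higher and 0 lower, beside 9.08% and 5.52%. In NK cells the effector genes differed less, with 2 of 17 higher and 0 lower for 8 wpt over 4 wpt, 1 higher and 3 lower of 17 for 4 wpt over Pre-IS, and 2 higher and 1 lower of 17 for 8 wpt over Pre-IS. Of all genes in NK cells, 8.96%, 17.5% and 15.4% were higher and 9.08%, 9.31% and 6.89% lower in these comparisons, which holds for the other lists too. IFNG, interferon gamma, was at 10.5 CPM in 4 wpt and 41.8 in 8 wpt NK cells, 3.99-fold higher (2.05 to 8.50), beside the higher TBX21.

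Naive and memory factors lay the other way in Post-IS T cells. Of 9 measured, 6 were higher than in Pre-IS and 1 lower (14.4% and 25.4% of all genes, median log2 0.64). LEF1, a partner of TCF7 in naive T cells, was at 271 and 550 CPM, 2.03-fold higher (1.57 to 2.59). KLF2, which keeps homing receptors on, was 1.71-fold higher, SATB1, a chromatin organiser, 1.65-fold and TCF7 1.56-fold. FOXO1, from 3 Post-IS UMIs, was 1.56-fold lower with an interval (0.501 to 7.86) that holds 1. For 8 wpt over 4 wpt, 0 of 12 were higher and 4 lower (6.84% and 8.53% of all genes, median -0.30), among them BCL11B, a T lineage factor, 2.09-fold lower (1.35 to 3.33), and FOXP1, a quiescence factor, 1.67-fold lower (1.37 to 2.06). For the pairs with Post-IS, 1 of 10 was higher and 4 lower at 4 wpt, and 1 of 9 higher and 6 lower at 8 wpt, beside 23.6% and 14.4%, and 26.0% and 14.6%, of all genes. For 4 wpt over Pre-IS, 1 of 12 was higher and 0 lower (13.3% and 7.15% of all genes), and for 8 wpt over Pre-IS, 0 of 10 higher and 1 lower (9.08% and 5.52%). In NK cells, 3 higher and 1 lower of 8 for 4 wpt over Pre-IS included ID3, a relative of ID2, at 5.96-fold higher (1.91 to 30), and SATB1 at 2.33-fold. The NK counts were 1 higher and 2 lower of 8 for 8 wpt over 4 wpt, with ID3 3.50-fold lower, and 3 higher and 2 lower of 7 for 8 wpt over Pre-IS.

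Other effector and activation factors followed the members only in part. For Post-IS over Pre-IS T cells, 0 of 12 were higher and 5 lower, beside 14.4% and 25.4% of all genes (median log2 -0.40). IRF1, an interferon response factor, was at 256 and 104 CPM, 2.45-fold lower (1.46 to 4.42), and the intervals of BHLHE40, IKZF3 and STAT4 (2.91, 2.13 and 1.60-fold lower) hold 1. At 4 wpt and at 8 wpt, 7 of 13 were higher than in Post-IS and 0 lower. Of all genes, 23.6% and 26.0% were higher there and 14.4% and 14.6% lower. For 8 wpt over 4 wpt, 0 of 14 were higher and 2 lower, beside 6.84% and 8.53% of all genes. The lower 2 were GATA3, the Th2 factor, by 1.57-fold (1.29 to 1.91) and MAF by 1.55-fold (0.992 to 2.47). None followed TBX21 and ZEB2 past the limit, and 0 of 14 is near the share of all genes. For 4 wpt over Pre-IS the counts were 0 higher and 1 lower of 14 (13.3% and 7.15% of all genes). For 8 wpt over Pre-IS they were 1 higher and 1 lower of 13 (9.08% and 5.52%). In NK cells they were 2 higher and 0 lower, 0 higher and 1 lower, and 0 higher and 1 lower of 12 for 4 wpt over Pre-IS, 8 wpt over 4 wpt and 8 wpt over Pre-IS.

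Genes whose proteins bind or act beside the members, such as CBFB (the partner of RUNX3), RUNX1 and E proteins, gave small counts. For Post-IS over Pre-IS T cells, STAT5A, a mediator of interleukin 2 signals, was 4.05-fold lower (1.08 to 34.0) from 2 Post-IS UMIs. The counts of 7 in T cells were 0 either way for 8 wpt over 4 wpt (6.84% of all genes higher and 8.53% lower). They were 2 higher and 1 lower for 4 wpt over Post-IS (23.6% and 14.4%). For 8 wpt over Post-IS they were 1 higher and 1 lower (26.0% and 14.6%). These T cell counts were near the background. In NK cells, 1 of 7 was higher for 8 wpt over 4 wpt (CBFB, 1.69-fold), and 2 of 6 were lower for 4 wpt over Pre-IS (CBFB and RUNX1).

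Genes with the most similar pattern to each member were ranked by Pearson r of log2(CPM + 10) over the 20 profiles of a label in a library with at least 50 cells, among 9494 genes. The profiles of a library share its preparation and depth, so r is a description. HOPX was most like PRF1 (r = 0.985), TGFBR3 (0.985) and KIR3DH (0.984), and EOMES most like SH2D1B (0.980), PTGDR (0.978) and NMUR1 (0.977). ID2 was most like TSPAN32 (0.958), CD247 (0.951) and GZMM (0.949), RUNX3 most like RAP1GAP2 (0.940), SPN (0.928) and CX3CR1 (0.905), and TBX21 most like MYRF (0.938), OTUD7B (0.924) and GPR153 (0.924). PRDM1 was nearest to FHL2 (0.938), OPTN (0.905) and THY1 (0.888), and ZEB2 to STXBP2 (0.901), SH3BP2 (0.897) and PSMB2 (0.896). Between members, EOMES and HOPX were most alike (0.935), followed by HOPX and ID2 (0.896). TBX21 and ZEB2 had r = -0.16 over all labels and 0.79 over the 12 lymphocyte profiles, and the monocyte labels held much ZEB2 and hardly any TBX21.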

How the data were processed

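The authors deposited, for each of the 4 libraries, a table of raw UMI counts per gene and cell and a table of cell type labels. The libraries were 10x Genomics 5′ V1, per the labels' protocols. Cell Ranger 3.1.0, Seurat 3.2.3 and the build Mmul_10 are named per the submitters' processing notes. How cells and genes were chosen and labelled is not given in the sources used here. Of the gene rows, 400 that carried an identifier were named from a reference table and 2159 stayed without a symbol.

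UMIs were summed per label and library and divided by the total, as CPM per 1000000. There were 1349957, 143725, 3171276 and 2234323 UMIs in Pre-IS, Post-IS, 4 wpt and 8 wpt T cells, so a floor of 3 counts is 2.22, 20.9, 0.946 and 1.34 CPM. Each library is 1 sample, so no p-value was computed. Genes entered a comparison with at least 20 UMIs over both libraries. All 7 members are named. From the 4 gene lists (12, 16, 9 and 20 genes, of which ZNF683 and GZMH had no row), at most 4 genes per direction, list and comparison may be named, ranked by the interval bound nearest to 1. Further genes named for their level in other labels or for likeness follow the rules given with them. The members and lists were chosen with earlier results of these data known. No doublet caller was run. As an alternative, cells with at least 2 marker genes of monocytes, B cells or platelets were left out (5, 2, 34 and 19 T cells and, without Post-IS, 5, 23 and 13 NK cells). Other alternatives were TMM scaling (edgeR 4.0.16), median-of-ratios scaling (DESeq2 1.42.0), equal weight per cell, thinning to 1000 UMIs, totals that leave out immunoglobulin, hemoglobin, mitochondrial and ribosomal protein genes, a minimum of 50 UMIs or none, and other divisions for cytotoxic cells and settings for likeness. Ratios and intervals were tested on simulated data. Python 3.11.15, numpy 2.4.6, scipy 1.17.1, pandas 2.3.3, matplotlib 3.10.9 and R 4.3.3 were used. Sequences and coordinates of the genes are not used here. Results for 1 gene of the list of partners are not reported here.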

Additional observations from a re-analysis of the deposited data

How the results depend on the processing

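No paired analysis was possible because each group is 1 library and no label ties the libraries to animals. Of 378 log2 ratios of single members under the other settings, 369 stayed within the counting error of the main value, 9 moved and 0 reversed a ratio past 1.5-fold. With each cell thinned to 1000 UMIs, Post-IS over Pre-IS in T cells was -0.48 for TBX21 and -1.59 for ZEB2 on the log2 scale, bounds that shrink because fewer UMIs are left. TBX21 was then under the 1.5-fold limit.

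Of 144 counts of members past the limit, 4 moved, where a move is a change to or from 0 or by a factor above 1.5. Smaller changes of a count were not counted as moves. The loss of TBX21 from the Post-IS over Pre-IS T cell count with thinning is not among the 4. EOMES counted as lower for 8 wpt over 4 wpt T cells with TMM scaling (1 in place of 0). For 4 wpt over Pre-IS NK cells 1 was lower in place of 0, TBX21 with equal weight per cell and PRDM1 with thinning. PRDM1 was no longer counted for 8 wpt over Pre-IS NK cells with thinning (0 in place of 1). The percentage of all genes past 1.5-fold moved more. With no minimum of UMIs it was, in T cells, 16% lower for Post-IS over Pre-IS, 15.6% higher for 4 wpt and 16.7% higher for 8 wpt over Post-IS, 11.7% lower for 4 wpt and 11.5% lower for 8 wpt over Pre-IS. In NK cells it was 14% lower for 4 wpt and 12.9% lower for 8 wpt over Pre-IS. With a minimum of 50 UMIs, 8 wpt over Pre-IS gave 5.99% higher and 2.69% lower in T cells and 3.5% lower in NK cells, and 8 wpt over 4 wpt gave 5.34% lower in NK cells. With 1 or 3 cytotoxic genes required, 7 of 7 members stayed higher in cytotoxic than in other T cells in Pre-IS, 4 wpt and 8 wpt, and in Post-IS 2 or 3 were higher. Thinning moved 37 of 49 percentages of cells with a UMI. Of 21 likeness alternatives, 16 kept fewer than 2 of the 3 genes, so those names depend on the profiles and the offset used. Leaving out a replicate could not be done with 1 library per group. Post-IS NK cells (9) and T cells (115) set the limit on every Post-IS statement.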
